A study of Homo sapiens with 3 samples.

Results

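CACNG5, CEP112 and APOH are 3 neighbouring genes on the long arm of chromosome 17, selected on the authors' class words and on loop length, because many long loops at them are classed as a gain. By their RefSeq gene bodies in GRCh38.p14, the assembly that hg38 names, CEP112 spans 65635537 to 66192133, APOH spans 66212033 to 66229415 and CACNG5 spans 66835117 to 66894751. A loop was counted at a gene when 1 of its ends, taken as the 5 kb that run inward from each position in the list, overlapped the gene body. This gave 460 loops at the 3 genes of 279618 in the authors' deposited table. Because these values chose the genes, they are given as a description and no test was made on them.

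The table comes from Hi-C, which counts ligation events between distant pieces of crosslinked chromatin, in HCT116, a human colorectal carcinoma line. There was 1 library of an ORC2 deletion clone made by CRISPR/Cas9 (ORC2-/-), 1 of an ORC2 rescue clone that carries ORC2 from the pLHCXORC2 vector, and 1 of the parental wild-type cells, all p53-/-. Each altered line is a single clone, so an effect of ORC2 and a difference between clones cannot be told apart. ORC2 belongs to the complex that binds replication origins before they are licensed. The table gives a class word for each loop (conserved gain, conserved lost or not conserved, here gained, lost and not conserved) but no strength, no depth and no sample. Which library a gain refers to is not given in the sources used here, and no direction with respect to ORC2 is drawn. The list does not show the deletion or the identity of the line, and depth is unknown.

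A chromatin loop in Hi-C is a pair of distant sites in more frequent contact than their surroundings. Many loops in mammalian cells are held by cohesin at sites bound by CTCF, and others join promoters to distant regulatory elements. CACNG5 encodes a member of the gamma subunit family of voltage-dependent calcium channels, known in neurons as an auxiliary protein of AMPA-type glutamate receptors. CEP112 encodes a coiled-coil protein of the centrosome. APOH encodes apolipoprotein H, a phospholipid-binding plasma protein made mainly in the liver and the main antigen of antiphospholipid antibodies. Between APOH and CACNG5 lies PRKCA, the gene of protein kinase C alpha, a calcium- and lipid-dependent signalling kinase.

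The starts of CEP112 and APOH are shown because some gained loops below have an end over a CEP112 start and none has one over the APOH start. RefSeq promoters were matched for 2 of the 3 genes, with 3 starts for CEP112 and 1 for APOH, all on the minus strand. The 30 bases just before a start are printed 5′ to 3′ on the minus strand of GRCh38.p14, with capitals for GGGCGG, the GC box that Sp1-type factors bind.
CEP112 outer start, chr17:66192134-66192163: gtggagtaggGGGCGGggaaatgcgagcgc
CEP112 inner start, chr17:65826452-65826481: cccacctaagagattgtggtggggaatctc
APOH start, chr17:66229416-66229445: catatttggctctgtctttttagcagacga
Promoter windows ran from 250 bases before to 50 after the start. At the printed outer CEP112 start, 66192133, the window was 74.7% G and C with 37 CpG. It had 4 matches to GGGCGG or its reverse complement CCGCCC. The other outer CEP112 start, 66191892, is not printed, and its window had 71% G and C, 35 CpG and 6 such matches. The inner CEP112 promoter had 1 CpG and 51% G and C, and the APOH promoter was 35.0% G and C with 3 CpG. Neither held GGGCGG or CCGCCC, which 45.0% of 35116 RefSeq promoter windows hold on either strand. None of the CEP112 and APOH windows held TATAAA or its reverse complement TTTATA, which 11.5% of all windows hold. The median window had 58.7% G and C and 14 CpG.

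At the 3 genes together, 40 loops were gained, 0 were lost and 420 were not conserved. The gained share of 8.70% (Wilson 95% interval 6.45 to 11.6%) stands beside 1.96% of all listed loops, a contrast that the choice of genes fixes. Lost loops are 0.196% of the list, and 0 of 460 has a Wilson upper limit of 0.828%. The intervals reflect counting alone, as if loops were independent, although neighbouring loops share ends. The gained loops had a median length of 691 kb, against 583 kb for the not conserved loops. By gene, the gained and not conserved medians were 689 and 410 kb at CACNG5 and 680 and 450 kb at APOH. At CEP112 they were alike, 707 and 712 kb. Loop length also helped to choose the genes, so these lengths are only described.

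Gained loops at CACNG5 formed a single block of far contacts. Neighbouring gained loops, joined where both ends lay within 10 kb, made 1 region of 44 loops from 66186529 to 66917129, and 34 of the 44 had an end on one of the 3 genes. The 44 loops ran from 670 to 721 kb, with a median of 698 kb. They used 7 left ends, spread over 32.6 kb from the outer CEP112 start to APOH, and 10 right ends, spread over 47.4 kb from inside CACNG5 to the space beyond it. Steps between adjacent ends were 3444 to 4993 bp. Of the 70 possible pairs of these ends, 44 were listed as gained, 7 as not conserved and 0 as lost, and 19 were not listed.

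**Figure D1:**
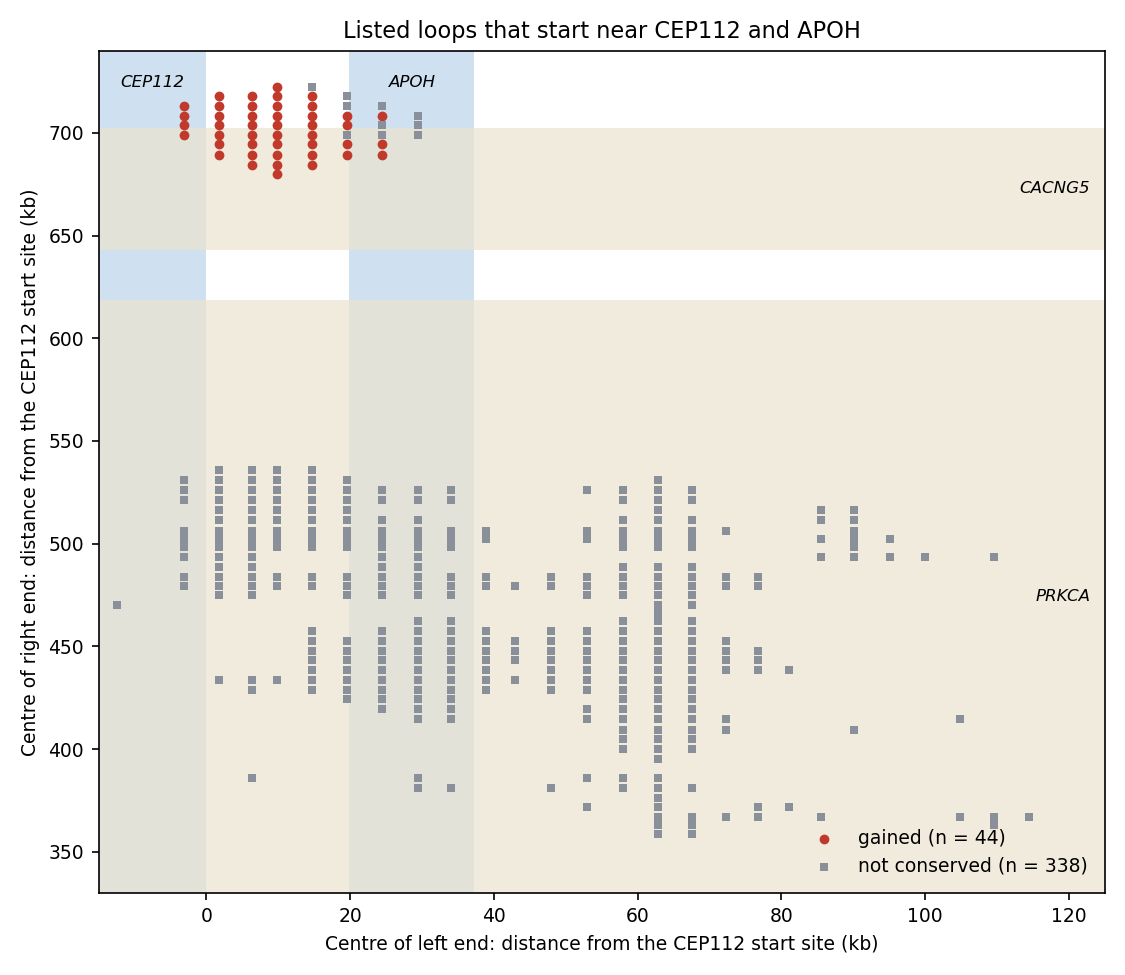
Each point is a listed loop, placed by the centre of its left end (horizontal axis) and of its right end (vertical axis), both in kb from the outer CEP112 start site, with gene bodies as shaded bands. The 44 gained loops (red) sit together at the top, where CACNG5 ends, whereas the not conserved loops (grey, 338 drawn) mostly have their right end inside PRKCA.

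The left ends carried most gained loops in the space between CEP112 and APOH. Left end 4, at 66199456 to 66204455 between the genes, had 10 gained loops of 22 listed (45.5%). The adjacent left ends 3 and 5 had 8 gained of 25 and 8 gained of 27, and left end 3 holds the pseudogene PSMD7P1. Left end 2, at 66191376 to 66196375, held the outer CEP112 start and had 7 gained of 22. Left end 1, inside CEP112, had 4 of 13, and left ends 6 and 7, at APOH, had 4 of 25 and 3 of 26. The gained share was thus 29.6 to 45.5% at left ends 1 to 5 and 16.0 and 11.5% at the 2 that touch APOH. These shares count loops to PRKCA, none of which was gained. Of the loops to the block's right ends, 0 were not conserved at each of left ends 1 to 4. There was 1 at left end 5, and there were 3 at each of left ends 6 and 7. Overlap with a gene turned on short distances at the edges. Left end 2 reached 758 bp into CEP112 while left end 3 began 3879 bp past it, and left end 6 reached 2146 bp into APOH while left end 5 stopped 2739 bp before it.

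Gained loops were spread over the right ends inside CACNG5 and past it. Right ends 1 to 5 lay wholly inside the gene and had 1, 3, 6, 6 and 5 gained loops. Right end 7, from 66897849 to 66902848 and so just beyond the gene, had 7 gained of 10 listed loops. Right end 6, which reached 1146 bp into CACNG5, had 6 of 8, and right ends 8 and 9 had 5 of 9 and 4 of 6. Right ends 1 and 10, at the outer edges of the block, had 1 gained loop each, of 1 and 6 listed. All 16 loops listed at right ends 1 to 4 were gained, and not conserved loops appeared from right end 5 outward. The last right end stopped 47.6 kb before CACNG4, the next gamma subunit gene, which had no listed loop.

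**Figure D2:**
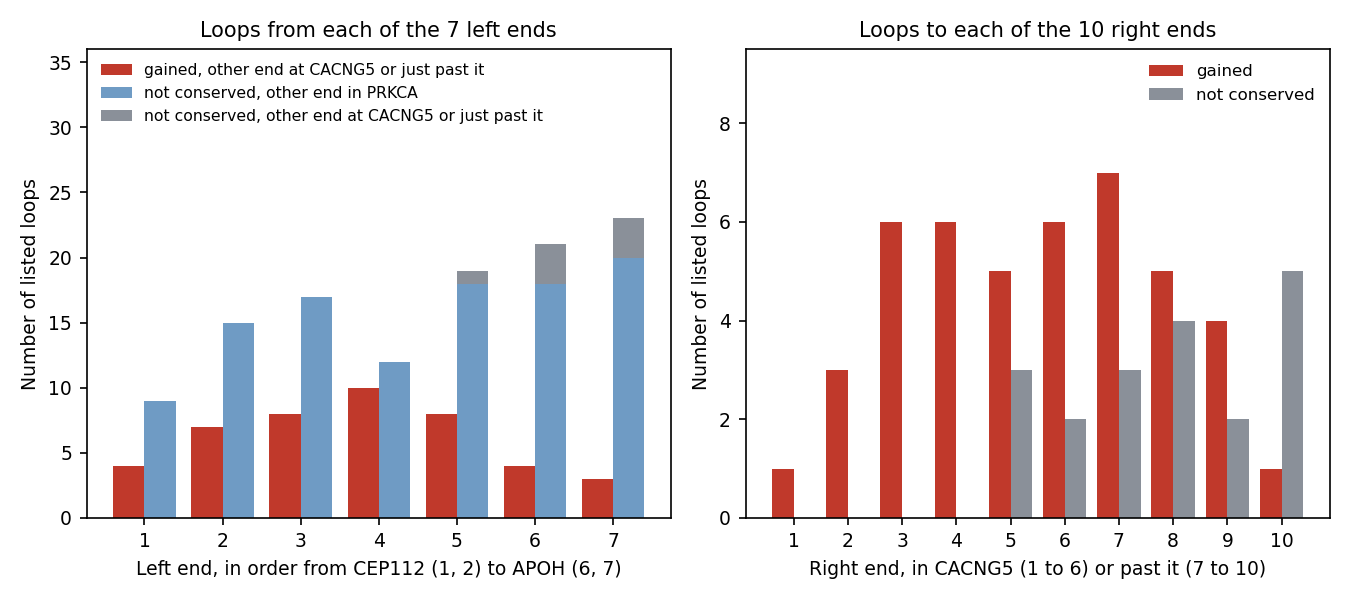
Bars give the number of listed loops at each of the 7 left ends (left panel) and 10 right ends (right panel) of the gained block, split by class and, on the left, by where the other end lies. The highest gained counts are 10 loops at left end 4 and 7 at right end 7, with 5 to 7 at each of right ends 3 to 8, while the not conserved loops from the same left ends go mostly to PRKCA.

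CACNG5 itself had 37 listed loops, and all of them reached it with their right end. Of these, 27 were gained, 0 were lost and 10 were not conserved, so that 73.0% (57.0 to 84.6%) were gained. The gained ends fell in one part of the gene: block right ends covered the 25.0 kb of the gene body farthest from PRKCA, and no gained loop ended in the 34.7 kb nearest to it. By the other end, 6 of the 27 gained loops reached CEP112, 5 reached APOH and 16 reached the space between these genes. The 10 not conserved loops fell into 2 kinds. Of these, 5 joined CACNG5 to APOH over 675 to 684 kb. They left from left ends 6 and 7 of the block, or from the next left end in APOH, and reached right ends 5 and 6. The other 5 joined it to PRKCA over 131 to 145 kb and ended in the part nearest PRKCA. Among 6114 genes with at least 10 listed loops, 11 including CACNG5 had a gained share as high or higher, and the median share was 0%. CACNG5 was chosen by these class words, so its high place follows from that choice and is only described.

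CEP112, whose body of 557 kb makes it the longest of the 3 genes, had 330 listed loops, of which 17 were gained, 0 lost and 313 not conserved. The gained share was 5.15% (3.24 to 8.09%). Its 17 gained loops were of separate kinds. In the block, 11 loops of 693 to 721 kb left from the outer start region, 6 of them to CACNG5 and 5 to the space beyond it. The 2 outer starts that RefSeq gives, at 66192133 and 66191892, each lay in the ends of 7 gained and 16 not conserved loops. The other 6 gained loops ended inside the gene and came from the opposite side, from the space without coding genes on either side of AXIN2, a negative regulator of Wnt signalling.

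Of those 6, 2 loops of 602 and 607 kb left from a site 0.761 kb past RGS9, a regulator of G-protein signalling. The shorter had its right end at 65825564 to 65830563, over the inner CEP112 start at 65826451, where 1 of 2 listed loops was gained. Another 2, of 704 and 708 kb, left from a site 28.4 kb past RGS9, and 1 of 648 kb left from 41.6 kb past it. The last was 229 kb long and was the only loop listed from its exact left position, 65569662. Beside it, 1 not conserved loop into CEP112 also left from the space between AXIN2 and CEP112, where left positions reached 65569687. In all, 294 loops had their right end in CEP112, and 6 of them (2.04%) were gained. The whole list, at all lengths, had 1.96% gained. Loops not at the 3 genes were gained in 3.28% at 600 to 700 kb and 3.58% at 700 to 800 kb. The 288 not conserved loops into CEP112 were 431 to 968 kb long. Most of them, 276, left from the space between RGS9 and AXIN2, and 11 left from AXIN2 itself over 431 to 655 kb.

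APOH had 109 listed loops, all leaving it to the right, of which 7 were gained, 0 lost and 102 not conserved. The gained share was 6.42% (3.15 to 12.7%). Of the 7 gained loops, 5 reached CACNG5 and 2 the space just beyond it, at 670 to 694 kb. APOH was covered by 5 left ends. The 2 ends nearest CEP112 had 4 gained of 25 and 3 gained of 26 loops, whereas the other 3 had 0 of 27, 0 of 20 and 0 of 11. The APOH start, at 66229415, lay in the last of these, so no gained loop had an end over it. At the last 2 ends all 20 and 11 listed loops went to PRKCA, and none of any class went past it. The 0 of 11 stands beside 1.96% gained in the whole list, so few or none would be gained at that share. Most APOH loops, 93, joined it to PRKCA over 352 to 516 kb, and all 93 were not conserved.

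PRKCA, which the gained loops span, had no loop in either changed class. Among 9909 protein-coding genes with a listed end, 12.7% had a gained and 1.85% a lost loop. Those genes had a median of 15 listed loops, so their shares are not matched to PRKCA. PRKCA had 343 listed loops, more than any of the 3 genes, and all were not conserved. The Wilson upper limit for its gained share was 1.11%, beside 1.96% gained in the whole list, a difference that was not tested. The 343 loops share 36 left and 47 right positions, so this limit reflects counting alone, as if loops were independent. Of the 160 loops listed from the 7 left ends of the block, 109 ended in PRKCA over 384 to 539 kb and 51 ended in the block. None of the 109 was gained, whereas 44 of the 51 were. The right ends in PRKCA lay from 66575363 to 66730453, and the next right end from these left ends came 139 kb farther on, in CACNG5. From the CACNG5 side, 63 listed loops had their right end in the span of the block's right ends. Of these, 51 came from the 7 left ends, 3 not conserved loops came from the next left end in APOH, and 9 not conserved loops of 150 to 216 kb came from PRKCA.

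The bounds of 670 and 721 kb are the shortest and longest gained loop of the block, so a high gained share at the 3 genes between them is fixed by that choice and is only described. Among listed loops of these lengths, 27 of 32 at CACNG5, 13 of 46 at CEP112 and 7 of 16 at APOH were gained, beside 3.72% of all 3118 in the list. The loops at the 3 genes are counted in that share, which was 2.63% (2.12 to 3.26%) without them. The block held 44 of the 116 gained loops of these lengths (37.9%). The other 72 lay on 16 chromosomes counted with chromosome 17, where 2 of them ended in CEP112, and the highest count on another chromosome was 17, on chromosome 6. At other lengths the 3 genes had few or no gained loops: 0 of 116 listed loops of 400 to 500 kb and 0 of 77 of 500 to 600 kb were gained, where 2.29% and 3.23% of all other listed loops were.

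**Figure D3:**
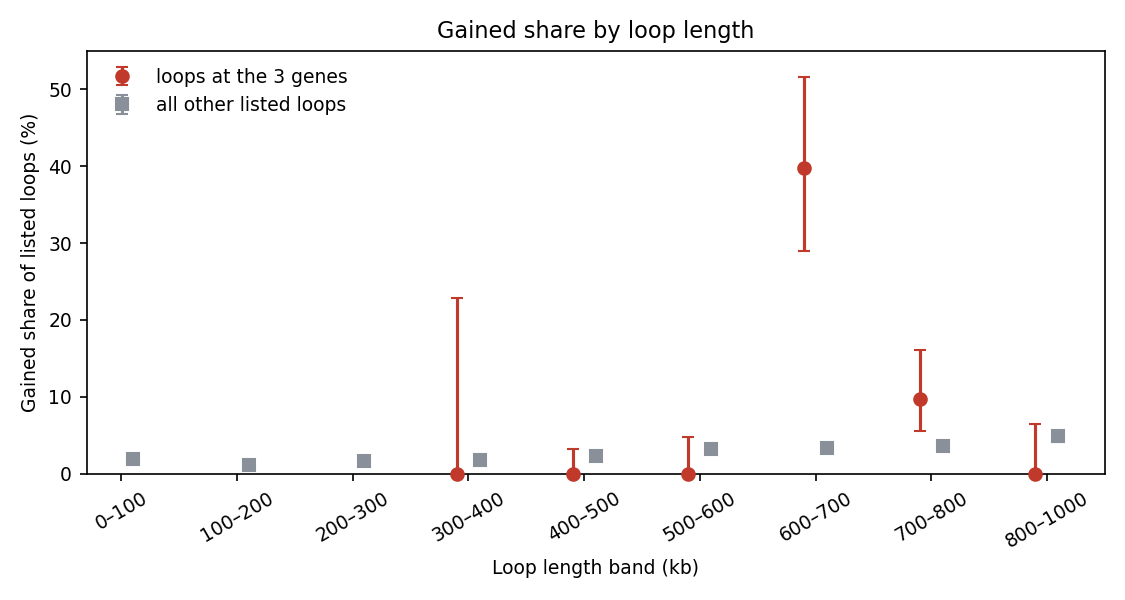
Points give the gained share of listed loops (%) in each length band (kb) for loops at the 3 genes (red) and all other listed loops (grey), with Wilson 95% intervals for counting error; bands with under 10 loops at the 3 genes are not drawn for them. The 3 genes stand at 39.7% at 600 to 700 kb and 9.68% at 700 to 800 kb, and at 0% in the other bands drawn.

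The CACNG5 block was longer in range than the 3 other gained regions set beside it. Its 44 loops filled 62.9% of its 70 pairs of ends. The region joining USP10 and ZDHHC7 on chromosome 16 had 74 gained loops in 51.4% of 144 pairs, that of RYK and SLCO2A1 on chromosome 3 had 37 in 56.1% of 66, and that of NOL10 and ODC1 on chromosome 2 had 32 in 59.3% of 54. Median lengths were 698 kb in the CACNG5 block, and 205, 280 and 236 kb in the other 3. Of all loops listed from the block's left ends, 27.5% were gained, the rest going mostly to PRKCA, against 57.9% for USP10, 71.8% for RYK and 74.4% for NOL10. These regions were picked for their gained loops, and the 3 genes also for loop length. The longer range of the block thus follows from that choice, and the differences were not tested. Of 1337 gained regions, 311 held only loops over 500 kb. The CACNG5 block had the most loops of these, 44, the next had 27, and the median was 3. Its place among them was not tested either, since class and length chose the genes.

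From 65 to 68 Mb on chromosome 17, 53 of 892 listed loops (5.94%) were gained and 0 were lost, beside 1.96% gained in the whole list. The block and the loops at the 3 genes made up 50 of the 53, and among the 421 loops of the window outside both, 3 (0.713%) were gained. Of 30 neighbouring genes from GNA13 to KCNJ2, 21 had a listed loop end and 4 had a gained one, beside 12.7% of 9909 protein-coding genes with a listed end. These were the 3 genes, which were chosen for their gained loops, and RGS9, with 2 gained of 10 listed loops. AXIN2 had 67 listed loops and PITPNC1, a phosphatidylinositol transfer protein gene, had 49, and none was gained or lost. No listed loop ended at GNA13, CACNG1 or HELZ.

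Related genes elsewhere differed in how many had gained loops. Of 8 gamma subunit genes, 4 had a listed end and CACNG5 alone had a gained one. CACNG2, which encodes the AMPA receptor auxiliary protein stargazin, had 0 gained of 86 and CACNG3 had 0 of 59. Of 37 centrosomal CEP genes, 22 had a listed end, 7 a gained and 1 a lost one. Besides CEP112 these were CEP120 (16 gained of 29), a centriole elongation gene, CEP131 (8 of 213), CEP68 (7 of 12), CEP250 (5 of 10), a centrosome cohesion gene, and CEP20 and CEP63 with 1 each, whereas CEP72 had 2 lost of 81. Of 22 apolipoprotein genes, 15 had a listed end and 3 a gained one: APOH, APOO (3 of 22), a mitochondrial inner membrane protein gene, and APOL2 (1 of 4). Among all genes with a listed end, 12.7% had a gained and 1.85% a lost one. Each family count includes the gene that was chosen for its gained loops (CACNG5, CEP112 or APOH), which raises it. The families were not tested against this background.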

How the data were processed

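Hi-C chromatin was cut with DpnII and ligated ends were captured with biotin, per the labels' protocols. The submitters' processing notes name Bowtie, hg19 and hg38 without roles. No source used here states the loop caller, the contact normalization, the thresholds or the libraries compared. The deposited loop list holds a class word per loop, the authors' own comparison, with no strength. Of 279669 rows, 49 without a class word and 2 repeats were left out. A compartment table has 6 columns of per-sample values named S1 to S3. These names match no sample label, so the columns were not used and no compartment value is given.

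Loop ends were set against RefSeq gene bodies and promoter windows of GRCh38.p14. The gene bodies give no exons, so exon, intron or UTR was not determined. Overlap and joining were tested on simulated data. Python 3.11.15, pandas 2.3.3 and statsmodels 0.14.6 (Wilson intervals) were used. No test between conditions was possible with 1 library a group. The members and gene lists were chosen with earlier results of these data known. Named genes were the 3 genes, genes at the other ends of their loops, and members of 4 lists (neighbours, gamma subunits, CEP genes, apolipoproteins). Alternatives varied the end width, gene bounds, joining distance and length range.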

Additional observations from a re-analysis of the deposited data

How the results depend on the processing

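In 20 of 26 alternatives a count stayed within 1.5 times its value, or a share or median inside its 95% interval. Gained loops at the 3 genes numbered 35 to 50, their share was 8.06 to 9.31% and their median length 689 to 696 kb. The block held 44 gained loops at each joining distance tried (5, 10, 20 and 50 kb). The number of gained loops pairing CACNG5 with CEP112 or APOH depended on where an end was taken to lie: it was 11 with ends 5 kb inward, 6 with the listed position alone, 16 with ends 5 kb to either side, 21 with ends 10 kb inward and 39 with gene bodies widened by 10 kb, since many left ends lie between the genes. The gained share among loops of 670 to 721 kb was 3.72% in the whole list, 10.7% on chromosome 17 alone, 2.63% without the loops at the 3 genes and 2.35% without the block, an alternative chosen after seeing the data. On chromosome 17 it was 2.85% without the loops at the 3 genes and 0.529% (2 of 378) without the block, so the block carries the 10.7%. No paired analysis was possible because the loop list holds no values per library, and there was 1 library in each group. Depth and differences between cultures could not be examined. The planned compartment values were not computed because the columns match no sample label.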

Other observations

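The gained loops of the block do not stand together in the deposited list. Its gained class fills rows 1 to 5493, and the block's loops lie between rows 552 and 5299, with a median of 1848. The earliest 2, at rows 552 and 553, join left end 4 between CEP112 and APOH to right ends 6 and 7 at the boundary of CACNG5, and the next 6 lie beside them, from left ends 2, 3 and 5 to the same right ends. The last, at row 5299, is the only loop at right end 1. What the order of rows stands for is not given in the sources used here.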
